A study of Sus scrofa with 18 samples.

Results

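Transcripts of 35 genes for collagens, laminins, integrins and 5 further matrix proteins were followed in 18 pig kidneys, with RNA of 1 kidney on each Affymetrix array. The genes were chosen by name alone: every probe set whose platform annotation gives a single symbol of a collagen chain (COL), laminin chain (LAMA, LAMB, LAMC) or integrin chain (ITGA, ITGB), or FN1, SPARC, BGN, FBN1 or POSTN, with ITGA8 left out. This took in 65 probe sets, and the probe set with the highest mean over the 18 arrays stood for each gene, out of 6765 genes with a single symbol in all. By role, 23 are matrix genes, 8 are integrin chains that bind matrix, 3 are integrin chains of leukocytes (ITGB2, ITGAM and ITGB7), and ITGB1BP2 is a binding partner of an integrin chain that the name pattern also caught. Background was set at 1.61 on the log2 scale from tag control probe sets. The group mean lay above it in at least 1 group for 33 of the 35 genes, and in no group for ITGA6 and ITGB1BP2. ITGAM, ITGB7 and ITGA2 were close to it, with 12, 14 and 6 of the 18 arrays above. COL1A1, COL4A1, LAMB3, ITGA3, ITGB6 and ITGAL were not analysed here.

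Kidney transplantation stops the blood flow and restores it in the recipient, and the study set carbon monoxide (CO) against no treatment in this setting. Naive kidneys were not transplanted (2 arrays). The other 4 groups of 4 arrays each are transplanted kidneys sampled at 4 h or at 24 h, without treatment or treated with CO. Donors 1 to 4 each gave a kidney to either 4 h group, and donors 5 to 8 to either 24 h group. The labels do not say which animal received CO, by what route or at what dose, and give no breed or age. Whole kidney tissue was used per the labels, and the tubule genes LRP2 and EGF were above background on every array. In such bulk tissue, fewer cells of a type and less RNA per cell cannot be told apart.

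Fibrillar collagens and fibronectin make up the interstitial matrix between tubules, while laminins and type IV collagen form the basement membranes under tubule cells, podocytes and endothelium. Most of the interstitial proteins are made by fibroblasts and vascular smooth muscle cells. Periostin (POSTN), SPARC and biglycan (BGN) are secreted proteins that bind collagen and are made in larger amounts by tissue under repair. Integrins are pairs of an alpha and a beta chain that anchor cells to these proteins: the beta 1 chain joins many alpha chains, beta 3 joins only alpha V or alpha IIb, and beta 2 is carried by leukocytes, on which it serves adhesion to the vessel wall.

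Levels below are RMA values on the log2 scale, changes are differences of log2 group means with their standard error (SE), and adjusted p values come from limma over all 23999 probe sets with Benjamini-Hochberg adjustment. A change passed when this p was under 0.05. Levels of different genes are not compared, because probe sets differ in brightness.

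Among the arrays, 2 of the untreated 4 h group stood apart. The array of donor 1 correlated more strongly with the naive arrays (mean r 0.982 across probe sets) than with its own group (0.956). The array of donor 2 stood apart in matrix genes. There POSTN was at 10.27, against 3.86, 2.60 and 4.05 in the other 3 untreated 4 h kidneys, and it had the largest difference from their median of all 23999 probe sets (6.41). FN1, which encodes fibronectin, was at 10.04 against 6.80, 6.99 and 6.39. The collagen VI chains COL6A2 (8.18 against 4.65, 4.62 and 4.24) and COL6A3 (9.09 against 6.15, 6.41 and 4.45) were also high there. SPARC, FBN1, COL5A1, COL1A2, COL5A3 and BGN lay more than 1 above the median of the other 3 kidneys as well, so that 10 of 23 matrix genes did, compared with 2.52% of all probe sets on that array. On the other 15 arrays of transplanted kidneys, 0 or 1 matrix genes did so.

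The 10 matrix genes in excess in the untreated kidney of donor 2 include no laminin and no basement membrane collagen. Not all fibrillar collagens were among them: COL3A1 differed from the median of the other kidneys by only 0.25, COL5A2 by 0.18, COL11A1 by 0.41 and COL2A1 by -0.28. The laminins LAMB1, LAMB2 and LAMC1 and the basement membrane collagens COL4A2 and COL15A1 stayed within 1 of the median of the other kidneys, and of 11 integrin chains only ITGA5 exceeded 1. Non-member genes of collagen-rich stroma were high on the same array: lumican (LUM) was at 8.65 against 3.66 to 5.86, the collagen chaperone FKBP10 at 6.88 against 3.46 to 3.77, and decorin (DCN) at 9.65 against 6.83 to 8.70. Of the fibroblast markers 4 of 7, of the smooth muscle markers 3 of 5 and of the pan-leukocyte markers 3 of 4 lay more than 1 above the median of the other 3 kidneys, and of the endothelial markers 0 of 7. Their part in the result was not tested. In the other kidney of this donor, treated with CO, POSTN was at 3.92 and FN1 at 6.97, far below the untreated kidney. Among the CO kidneys at 4 h it was still the highest in FN1, FBN1 (6.55), BGN (6.79), COL6A2 (5.46) and SPARC (9.65). It was not the highest in POSTN, COL6A3, COL5A1, COL1A2 or COL5A3. A further fibronectin probe set gave 4.53 in the untreated kidney of donor 2 and 1.38 to 2.09 in the other 3. Member results that rest on the donor 1 or donor 2 array are given with and without it, while those of non-member lists are given over all arrays only. Both arrays were singled out after their values were seen. The donor 1 array is the one most like the naive arrays, so leaving it out by itself favours larger changes from naive.

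**Figure D1:**
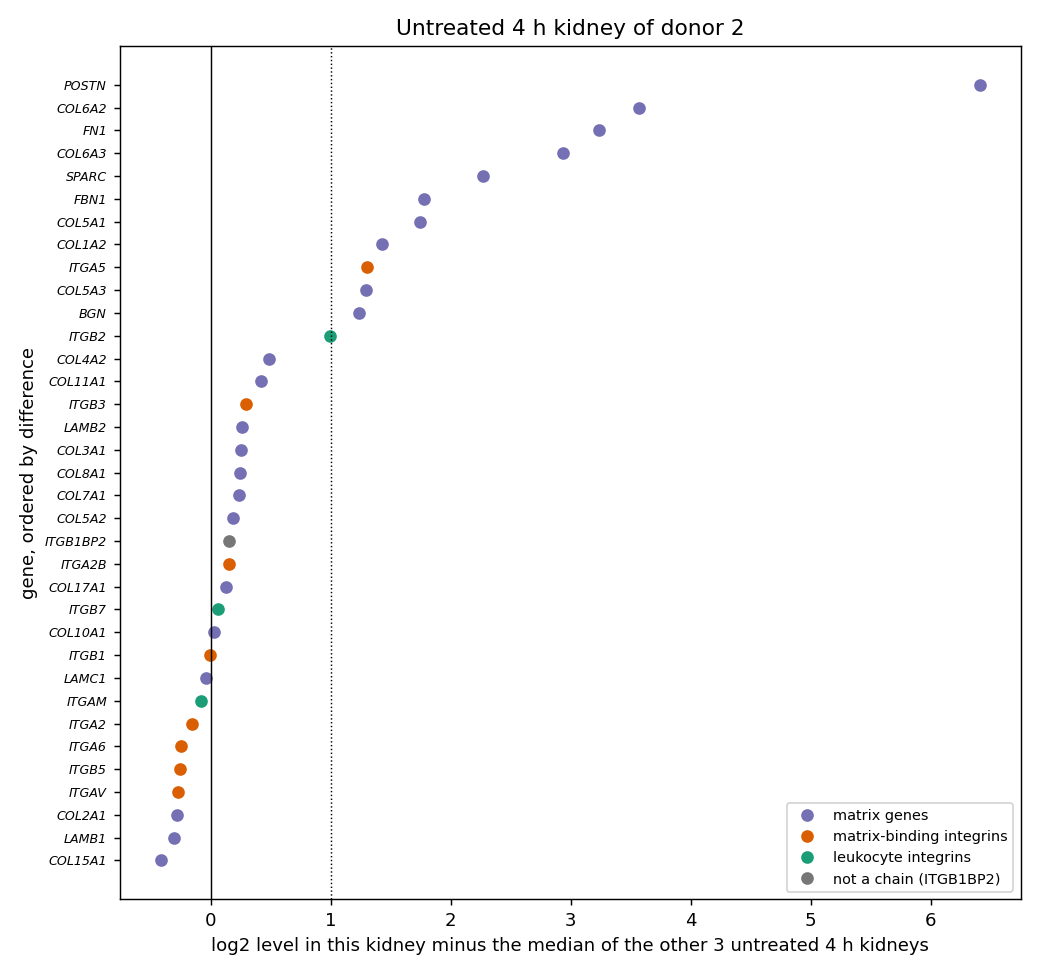
Horizontal axis: log2 level in the untreated 4 h kidney of donor 2 minus the median of the other 3 untreated 4 h kidneys; vertical axis: the 35 genes ordered by that difference, coloured by class, with a dotted line at 1. POSTN lies at 6.41 and 10 matrix genes lie beyond the dotted line, with ITGA5 as the only integrin chain there.

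Against naive kidneys, integrin chains rose and matrix genes did not pass. In untreated kidneys at 4 h, 1 of 35 members passed (1.5% of all probe sets did), and at 24 h 3 did (14.6% of all probe sets). In CO kidneys 2 passed at 4 h (13.6% of all probe sets) and 2 at 24 h (11.7%). All of these were rises of integrin chains: ITGB1 in each of the 4 comparisons, ITGB3 in both at 24 h, ITGA5 in CO kidneys at 4 h and ITGB2 in untreated kidneys at 24 h. Over all probe sets, 0.942% and 6.79% rose in untreated kidneys at 4 h and 24 h, and 6.84% and 5.75% in CO kidneys. The members did not stand out from all probe sets by their number. By limma 0 of 23 matrix genes passed in each of the 4 comparisons. With an unadjusted p under 0.05 there were 0 and 0 of them in untreated kidneys at 4 h and 24 h (20.7% and 28.1% of all probe sets had one) and 2 and 3 in CO kidneys (28.4% and 25.9%). Their median change was 0.11 and 0.16 in untreated and -0.10 and 0.14 in CO kidneys, against -0.03, 0.01, -0.01 and -0.02 over all probe sets.

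ITGB1, the beta 1 chain that pairs with the collagen, laminin and fibronectin receptors' alpha chains, was at 8.62 and 8.66 in naive kidneys. Levels were 8.997, 9.37, 9.57 and 9.37 in untreated kidneys of donors 1 to 4 at 4 h, and 9.17, 9.11, 9.49 and 9.12 in CO kidneys. At 24 h they were 9.08, 9.34, 9.21 and 9.31 in untreated and 9.25, 9.004, 9.37 and 9.20 in CO kidneys of donors 5 to 8. Every transplanted kidney was above both naive kidneys, and the 4 transplanted groups overlapped each other. The change was 0.68 ± 0.16 at 4 h untreated (1.61-fold, adjusted p = 0.0494) and 0.59 ± 0.16 at 24 h untreated (adjusted p = 0.0233). With CO it was 0.58 ± 0.16 at 4 h (adjusted p = 0.0298) and 0.56 ± 0.16 at 24 h (adjusted p = 0.0351). These calls lie close to the threshold. All 4 ended without either naive array, with adjusted p up to 0.288, 0.166, 0.172 and 0.222 in the order given, and single kidneys ended them too: donor 2, 3 or 4 at 4 h untreated, donor 6 at 24 h untreated, donor 1 or 3 at 4 h with CO and donor 5, 7 or 8 at 24 h with CO. Array batch as a block ended the untreated calls at 4 h (0.68, adjusted p = 0.0798) and 24 h (0.45, adjusted p = 0.436) and the CO call at 24 h (0.44, adjusted p = 0.680). Centring the arrays on their median ended the same 3 calls. Fitting the compared groups alone ended the untreated and the CO call at 4 h, and donor as a random block that at 4 h untreated (adjusted p = 0.0511). Without the donor 2 array 0 of 35 members passed at 4 h untreated (0.0542% of all probe sets), where ITGB1 was at 0.67 ± 0.18 (adjusted p = 0.125). Without the donor 1 array 4 did (13.9% of all probe sets), namely ITGB1, ITGA5, ITGB2 and, lower, ITGB5.

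ITGB3, the beta 3 chain of the vitronectin receptor and of the platelet fibrinogen receptor, had the change with the smallest adjusted p of all members. Naive kidneys were at 2.81 and 3.31, untreated kidneys of donors 1 to 4 at 3.46, 4.10, 3.80 and 4.11, and CO kidneys of the same donors at 4.14, 4.79, 3.87 and 3.00. At 24 h untreated kidneys of donors 5 to 8 were at 5.15, 6.09, 5.63 and 6.91 and CO kidneys at 5.91, 5.76, 5.93 and 5.70. All 8 kidneys at 24 h were above all naive and all 4 h kidneys. The change from naive was 2.88 ± 0.43 (7.38-fold, adjusted p = 0.000589) in untreated and 2.76 ± 0.43 (6.79-fold, adjusted p = 0.00132) in CO kidneys at 24 h. From 4 h to 24 h ITGB3 rose by 2.08 ± 0.35 untreated (adjusted p = 0.0016) and by 1.88 ± 0.35 with CO (adjusted p = 0.0021). It kept all 4 calls whichever array was left out. With array batch as a block the change from naive was 1.76 in untreated kidneys (adjusted p = 0.134) and 1.40 in CO kidneys (adjusted p = 0.499). From 4 h to 24 h it was then 0.79 untreated (adjusted p = 0.799) and 0.35 with CO (adjusted p = 0.878). Of the 8 arrays at 24 h, 7 share no batch with the other groups. Within batch 2, which holds the exception, the untreated 24 h kidney of donor 5 was 1.84 above the naive kidney and 1.05 above the untreated 4 h kidney.

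The alpha chains that pair with beta 3 did not rise with it. ITGAV, the alpha V chain, was at 8.44, 8.24, 8.61 and 7.89 in CO kidneys at 4 h and at 7.47, 7.26, 7.55 and 7.96 at 24 h, a fall of 0.73 ± 0.21 (adjusted p = 0.0245). The groups overlapped in a single kidney, that of donor 8, which was above donor 4. The call ended without the array of donor 1, 3, 5, 6 or 7 (adjusted p up to 0.0781). In untreated kidneys the ITGAV change from 4 h to 24 h was -0.30 ± 0.21 (adjusted p = 0.435). ITGA2B, the alpha IIb chain of platelets, was at 4.65, 4.65, 4.50 and 4.24 in untreated kidneys at 4 h and 3.69, 3.96, 4.06 and 4.19 at 24 h. With CO it was at 4.77, 4.65, 4.23 and 4.16 and then 3.86, 3.98, 3.65 and 3.95. It fell in both series without overlap, by 0.54 ± 0.16 (adjusted p = 0.0416) and by 0.59 ± 0.16 (adjusted p = 0.0166). The untreated call ended without the array of donor 1, 2, 3, 5, 6 or 7 (adjusted p up to 0.130), and the CO call without donor 1 or 7 (up to 0.0626). With array batch as a block neither ITGA2B fall passed (-0.98, adjusted p = 0.236, and -1.17, adjusted p = 0.311), nor did that of ITGAV with CO (-0.56, adjusted p = 0.716). GP9, the other platelet gene measured, had group means of 4.52 to 4.69 in all 5 groups. ITGB5, another partner of alpha V, had a mean of 7.34 in naive kidneys, 6.58 and 6.62 in untreated and CO kidneys at 4 h, and 7.05 and 7.14 at 24 h. None of its changes passed over all 18 arrays. Without the donor 1 array its change from naive at 4 h untreated was -0.94 ± 0.29 (adjusted p = 0.0404).

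ITGA5 encodes the alpha 5 chain, which with beta 1 forms the main fibronectin receptor. Naive kidneys were at 3.04 and 2.94, untreated kidneys of donors 1 to 4 at 3.25, 6.68, 6.33 and 5.37 and CO kidneys at 5.80, 6.23, 6.16 and 4.97. At 24 h untreated kidneys of donors 5 to 8 were at 5.17, 4.89, 4.40 and 3.88, and CO kidneys at 4.34, 5.28, 4.86 and 4.27. Every transplanted kidney was above both naive kidneys, and the untreated kidney of donor 1 was the nearest to them. ITGA5 rose in CO kidneys at 4 h by 2.80 ± 0.67 (6.96-fold, adjusted p = 0.0153), a call that ended without either naive array (adjusted p up to 0.129). In untreated kidneys at 4 h the change of 2.42 ± 0.67 did not pass (adjusted p = 0.0683), but without the donor 1 array it was 3.14 ± 0.45 (adjusted p = 0.000356). That array was singled out from these values as the one most like naive kidneys, so this fit is no independent support. Without it 13.9% of all probe sets passed in this comparison, against 1.5% with it. At 24 h the changes from naive were 1.59 ± 0.67 untreated (adjusted p = 0.130) and 1.70 ± 0.67 with CO (adjusted p = 0.117). With the spread estimated without the donor 1 array both had an SE of 0.42 and passed (adjusted p = 0.0165 and 0.0139; 17.4% and 14.5% of all probe sets did). From 4 h to 24 h ITGA5 then fell by 1.54 ± 0.37 in untreated kidneys (adjusted p = 0.0141; 12.2% of all probe sets passed) and by 1.10 ± 0.35 with CO (adjusted p = 0.0347; 20.3% passed), which over all 18 arrays did not pass (-0.83 ± 0.55 and -1.10 ± 0.55). The second ITGA5 probe set also rose in CO kidneys at 4 h, by 1.13 ± 0.35 (adjusted p = 0.0409), and then fell by 1.06 ± 0.28 to 24 h (adjusted p = 0.017). ITGA2, the alpha 2 chain of the collagen receptor, reached at most 2.25 and was below background on 12 arrays.

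**Figure D2:**
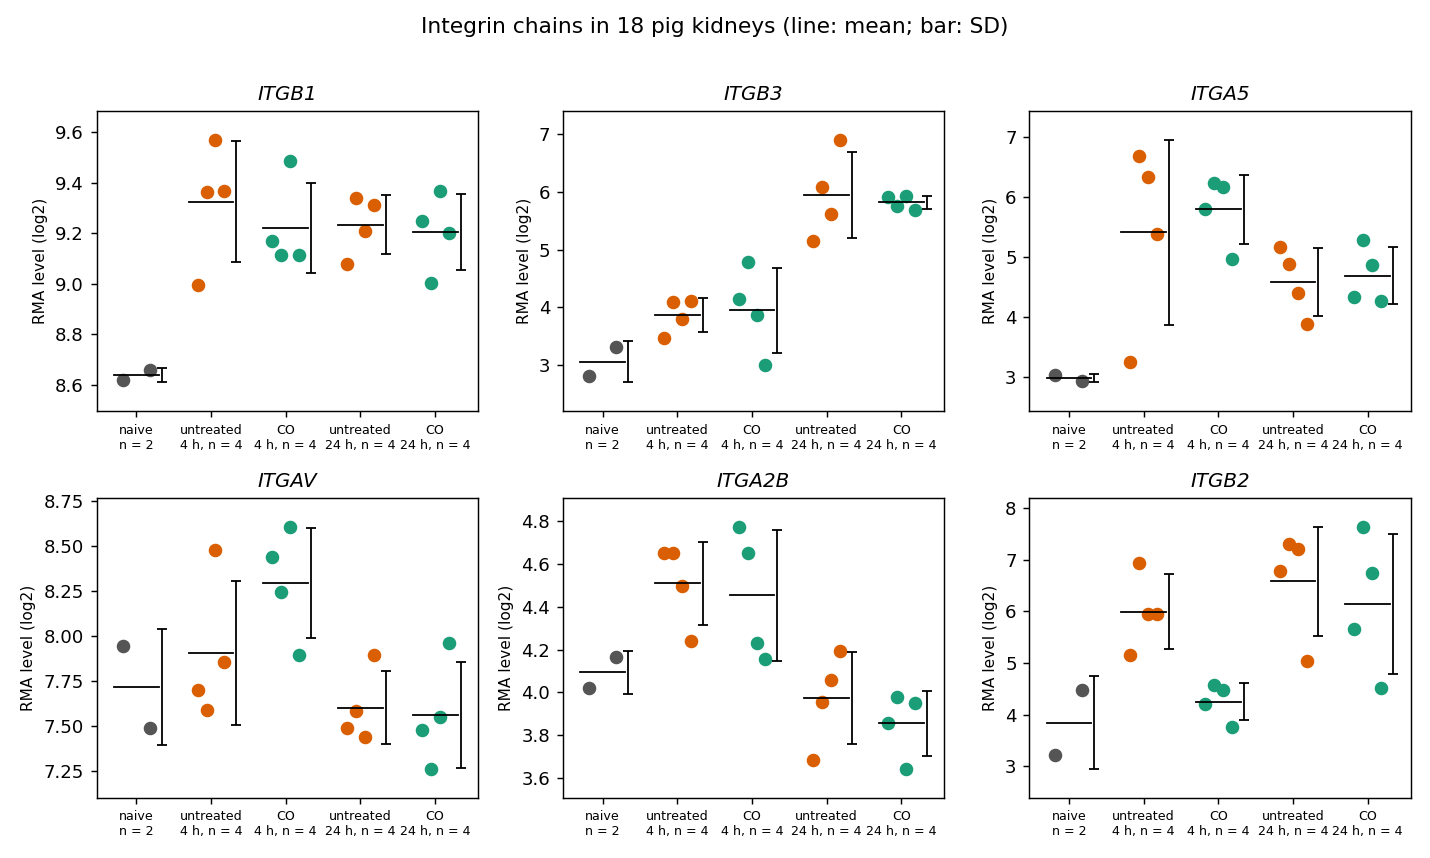
Vertical axes: RMA level (log2) of 6 integrin chains; horizontal axes: the 5 groups, with 1 point per kidney, the group mean as a line and the SD as a bar. ITGB3 separates the 24 h kidneys (5.15 to 6.91) from all others (2.81 to 4.79), and ITGB2 separates CO kidneys at 4 h (3.77 to 4.57) from untreated ones (5.15 to 6.93).

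Of the leukocyte integrins, only ITGB2 was well above background. ITGB2 encodes the beta 2 chain carried by neutrophils, macrophages and lymphocytes. Naive kidneys were at 3.22 and 4.48, untreated kidneys of donors 1 to 4 at 5.15, 6.93, 5.94 and 5.95, and CO kidneys at 4.21, 4.57, 4.48 and 3.77. At 24 h untreated kidneys were at 6.78, 7.30, 7.20 and 5.03 and CO kidneys at 5.66, 7.64, 6.74 and 4.52. At 4 h all untreated kidneys lay above all CO kidneys, which overlapped the naive ones, and at 24 h the groups overlapped widely. ITGB2 rose in untreated kidneys at 24 h by 2.73 ± 0.73 (6.64-fold, adjusted p = 0.0198), a call that ended without either naive array or donor 6 (adjusted p up to 0.249) and with array batch as a block (2.46, adjusted p = 0.227). In untreated kidneys at 4 h the change was 2.15 ± 0.73 (adjusted p = 0.114), and 2.43 ± 0.76 without donor 1 (adjusted p = 0.0440). In CO kidneys it was 0.41 ± 0.73 at 4 h (adjusted p = 0.787) and 2.29 ± 0.73 at 24 h (adjusted p = 0.0531). From 4 h to 24 h ITGB2 rose in CO kidneys by 1.88 ± 0.60 (adjusted p = 0.0393), with the 24 h kidney of donor 8 within the 4 h range, and the call ended without donor 1, 3, 4, 5, 6 or 7 (adjusted p up to 0.125) and with array batch as a block (0.94, adjusted p = 0.809). In untreated kidneys the change was 0.58 ± 0.60 (adjusted p = 0.632).

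ITGB2 moved with other leukocyte genes. The mean level of 4 of 4 pan-leukocyte markers was 3.92 to 4.32 in naive kidneys, 5.34 to 6.50 in untreated and 4.28 to 4.68 in CO kidneys at 4 h, and 4.76 to 7.37 and 4.42 to 7.00 at 24 h. For 10 of 15 granulocyte and macrophage markers it was 2.60 to 3.16, 3.51 to 5.64, 3.50 to 3.93, 4.16 to 5.84 and 3.48 to 5.67 in the same order. The untreated and CO kidneys of donor 8 had the lowest ITGB2 of their groups and the lowest level of both marker lists. The part of leukocyte number in the ITGB2 result was not tested. ITGAM, the alpha M partner of beta 2, was between 1.30 and 1.98 and ITGB7 between 1.40 and 2.03 on all arrays, too near background to follow.

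**Figure D3:**
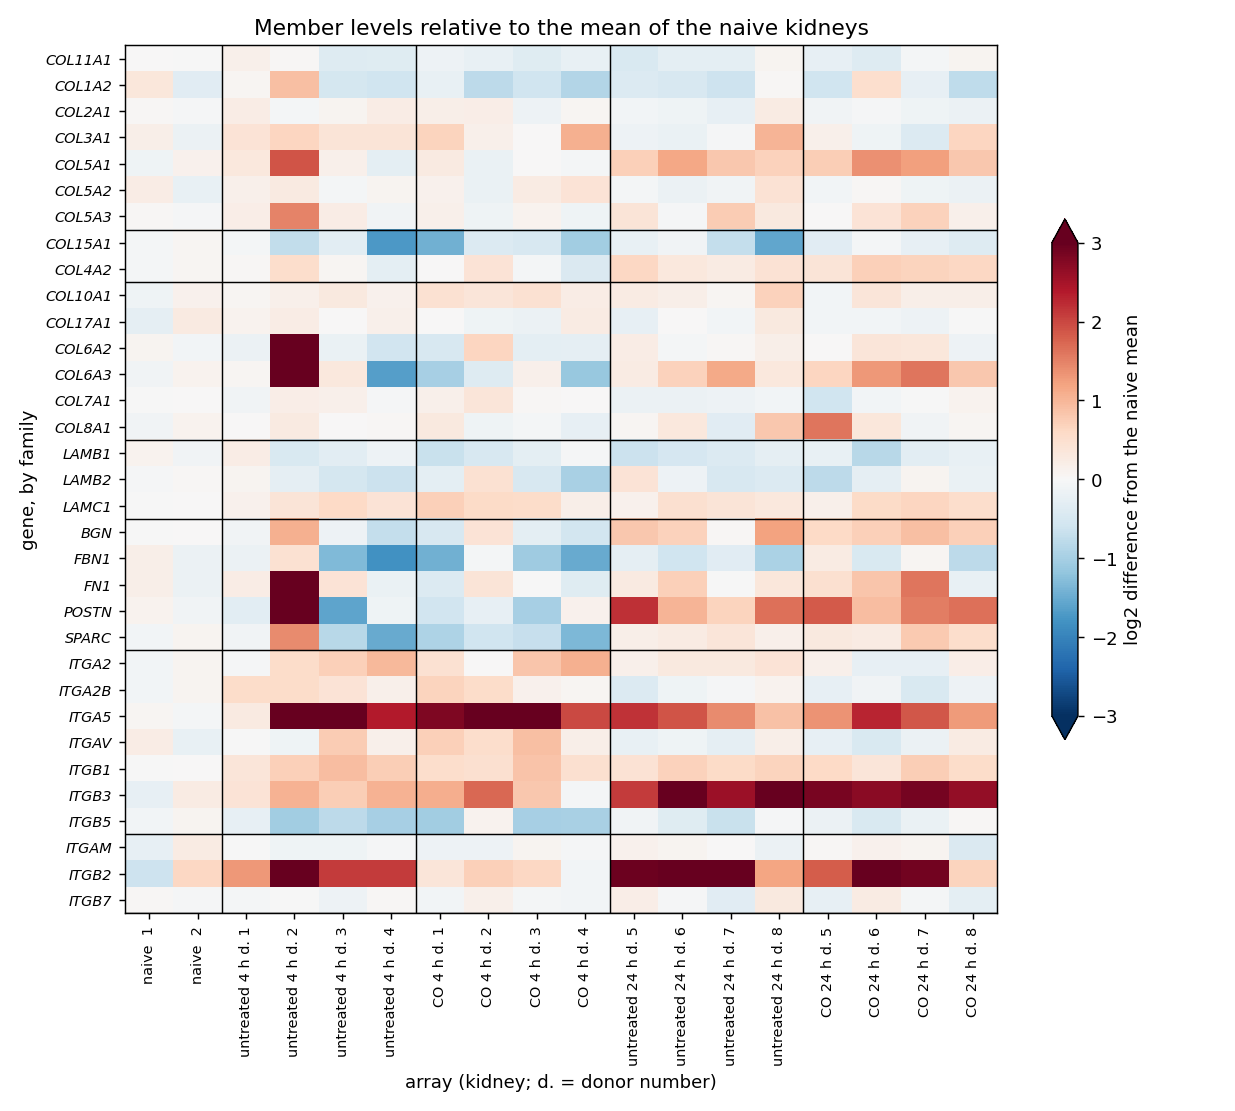
Rows: the 33 genes above background, ordered by class with lines between classes; columns: the 18 arrays by group; colour: log2 level minus the mean of the naive kidneys, with the scale ending at 3 in either direction. ITGB3 is high in all 24 h kidneys, ITGA5 in all transplanted kidneys but the untreated one of donor 1, and POSTN, FN1, COL6A2 and COL6A3 are highest in the untreated 4 h kidney of donor 2.

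Over all 18 arrays, matrix genes passed in a single comparison, that of CO kidneys at 24 h with CO kidneys at 4 h. From 4 h to 24 h 8 of 35 members passed with CO (17.6% of all probe sets did) and 2 without (9.72%). ITGB3 rose and ITGA2B fell in both; with CO, ITGB2 rose and ITGAV fell as well. With CO, 4 of 23 matrix genes rose, where 10.2% of all probe sets did, and 0 fell. The median change over the 23 genes was 0.32, against -0.04 over all probe sets. The median change was -0.05 in untreated kidneys, against 0.02. The 4 genes are SPARC, COL5A1, BGN and COL4A2. The 24 h kidneys came from other donors than the 4 h kidneys and from other array batches except for the untreated kidney of donor 5, so in CO kidneys time and batch cannot be told apart. With batch as a block the changes of SPARC, COL5A1, BGN and COL4A2 were 0.56, 0.26, 0.49 and 0.51 and did not pass.

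SPARC, which encodes a collagen-binding protein of the matrix, was at 10.17 and 10.31 in naive kidneys and at 9.31, 9.65, 9.55 and 8.90 in CO kidneys at 4 h. At 24 h CO kidneys were at 10.54, 10.49, 11.02 and 10.76. The 4 h group lay below both naive kidneys and the 24 h group above both. The rise between them was 1.35 ± 0.41 (2.55-fold, adjusted p = 0.0325). The differences from naive, -0.89 ± 0.50 at 4 h and 0.46 ± 0.50 at 24 h, did not pass (adjusted p = 0.270 and 0.630). Untreated kidneys were at 10.13, 11.67, 9.40 and 8.72 at 4 h and 10.41, 10.48, 10.61 and 10.40 at 24 h, a change of 0.49 ± 0.41 (adjusted p = 0.534). A dimmer SPARC probe set, at 3.47 to 4.10 on all arrays, did not move with the brighter one.

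BGN, the small proteoglycan biglycan, was at 6.37 on both naive arrays. CO kidneys were at 5.88, 6.79, 6.08 and 5.81 at 4 h and at 6.97, 7.10, 7.26 and 7.08 at 24 h. The groups did not overlap, and the rise was 0.97 ± 0.31 (1.95-fold, adjusted p = 0.0436).

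COL5A1, a chain of collagen V that sets the diameter of collagen I fibrils, was at 4.98 and 5.23 in naive kidneys, at 5.37, 4.92, 5.12 and 5.05 in CO kidneys at 4 h and at 5.85, 6.48, 6.34 and 5.92 at 24 h. It rose by 1.04 ± 0.33 (2.05-fold, adjusted p = 0.0381) without overlap, and a second bright probe set of the gene gave 1.16 ± 0.42 (adjusted p = 0.0631). COL4A2, a chain of the basement membrane collagen IV, was at 8.12 and 8.23 in naive kidneys, at 8.19, 8.59, 8.11 and 7.74 at 4 h and at 8.57, 8.88, 8.84 and 8.80 at 24 h with CO. It rose by 0.62 ± 0.18 (1.53-fold, adjusted p = 0.0272), with donor 5 at 24 h just below donor 2 at 4 h. Single arrays ended each of these calls. SPARC no longer passed without donor 1, 3, 4, 5, 6, 7 or 8 (change 1.20 to 1.42, adjusted p up to 0.0898), and BGN without the same donors (0.86 to 1.01, up to 0.115). COL5A1 no longer passed without donor 1, 2, 3, 4, 6 or 7 (0.93 to 1.12, up to 0.0984), and COL4A2 without donor 1, 3, 4, 6, 7 or 8 (0.48 to 0.63, up to 0.0903). The mean over the 6 COL5A1 probe sets gave 0.30, which did not pass.

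Fibroblast markers rose with these genes from 4 h to 24 h in CO kidneys, but the course of their mean level from naive differed. The mean level of 7 of 8 markers was 6.17 to 6.62 in naive kidneys, 4.36 to 5.13 in CO kidneys at 4 h and 5.69 to 6.46 at 24 h. At 24 h with CO the marker mean (6.12) was below that of naive kidneys (6.40). The means of SPARC, BGN, COL5A1 and COL4A2 were then above their naive means. Single markers were mixed at that time: PDGFRB (7.71 against 7.23), THY1 (4.32 against 3.98) and CDH11 (6.49 against 6.24) were above their naive means. DCN, LUM, TCF21 and CXCL12 were below theirs. From naive to 4 h with CO, COL5A1 (5.10 and 5.11), COL4A2 (8.18 and 8.16) and the marker PDGFRB (7.23 and 7.24) hardly moved. In CO kidneys at 4 h TCF21, CDH11 and CXCL12 fell against naive, and these and THY1 rose from 4 h to 24 h, by 1.76, 2.66, 1.99 and 1.70. Untreated kidneys had a level of 4.63 to 6.55 at 4 h and 5.51 to 6.27 at 24 h. The 5 of 6 smooth muscle markers measured gave 5.96 to 6.36 in naive kidneys, 6.08 to 7.20 in CO kidneys at 4 h and 6.49 to 7.87 at 24 h. With CO, ACTA2, TAGLN and DES had higher means at 24 h than at 4 h. CNN1 (4.21 after 4.43) and MYL9 (7.17 after 7.37, with 7.99 in naive kidneys) had lower ones. Tubule markers fell on average from naive to 4 h with CO and again to 24 h, so only the later step went the other way. The mean level of 3 of 10 was 9.03 to 9.04 in naive kidneys, 6.87 to 8.53 in CO kidneys at 4 h and 5.16 to 7.13 at 24 h, with LRP2, SLC22A6 and EGF lower at 24 h than in naive kidneys. The part of stromal and tubule cell number in the SPARC, BGN, COL5A1 and COL4A2 results was not tested.

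More matrix genes passed without the donor 2 array, which entered the untreated 4 h mean and the estimate of the spread in every comparison. Without it, 4 matrix genes rose from 4 h to 24 h in untreated kidneys as well: POSTN by 2.05 ± 0.39 (adjusted p = 0.00432), SPARC by 1.06 ± 0.26 (adjusted p = 0.0185), BGN by 1.01 ± 0.26 (adjusted p = 0.0232) and COL5A1 by 0.79 ± 0.19 (adjusted p = 0.0199). In all, 6 of 35 members then passed there (9.01% of all probe sets), the others being ITGB3 and ITGA6, which is below background. With that array, the same 4 changes were 0.36, 0.49, 0.66 and 0.32. In CO kidneys from 4 h to 24 h, leaving it out added POSTN (1.92 ± 0.36, adjusted p = 0.00255) and COL6A3 (1.68 ± 0.39, adjusted p = 0.00806), so that 10 of 35 members passed (17.5% of all probe sets). These fits were chosen after the values had been seen.

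POSTN, which is made by fibroblasts of repairing tissue, was at 4.27 and 4.08 in naive kidneys. CO kidneys were at 3.60, 3.92, 3.18 and 4.30 at 4 h and at 6.02, 5.11, 5.70 and 5.83 at 24 h. Untreated kidneys at 24 h were at 6.36, 5.20, 4.84 and 5.83. All 8 kidneys at 24 h were above the naive kidneys and above all 4 h kidneys but the untreated one of donor 2. Over all 18 arrays no POSTN change passed: it was 1.38 ± 1.32 untreated (adjusted p = 0.563) and 1.49 ± 1.32 with CO (adjusted p = 0.538) at 24 h against naive. Without the donor 2 array the same changes had an SE of 0.44 and passed (adjusted p = 0.0453 and 0.0376). COL5A1 did likewise, with 0.84 ± 0.22 untreated (adjusted p = 0.0179) and 1.04 ± 0.22 with CO (adjusted p = 0.00748). With POSTN and COL5A1, 5 of 35 members passed in either comparison (14.9% of all probe sets untreated, 12.1% with CO). The second POSTN probe set was below background in every group.

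**Figure D4:**
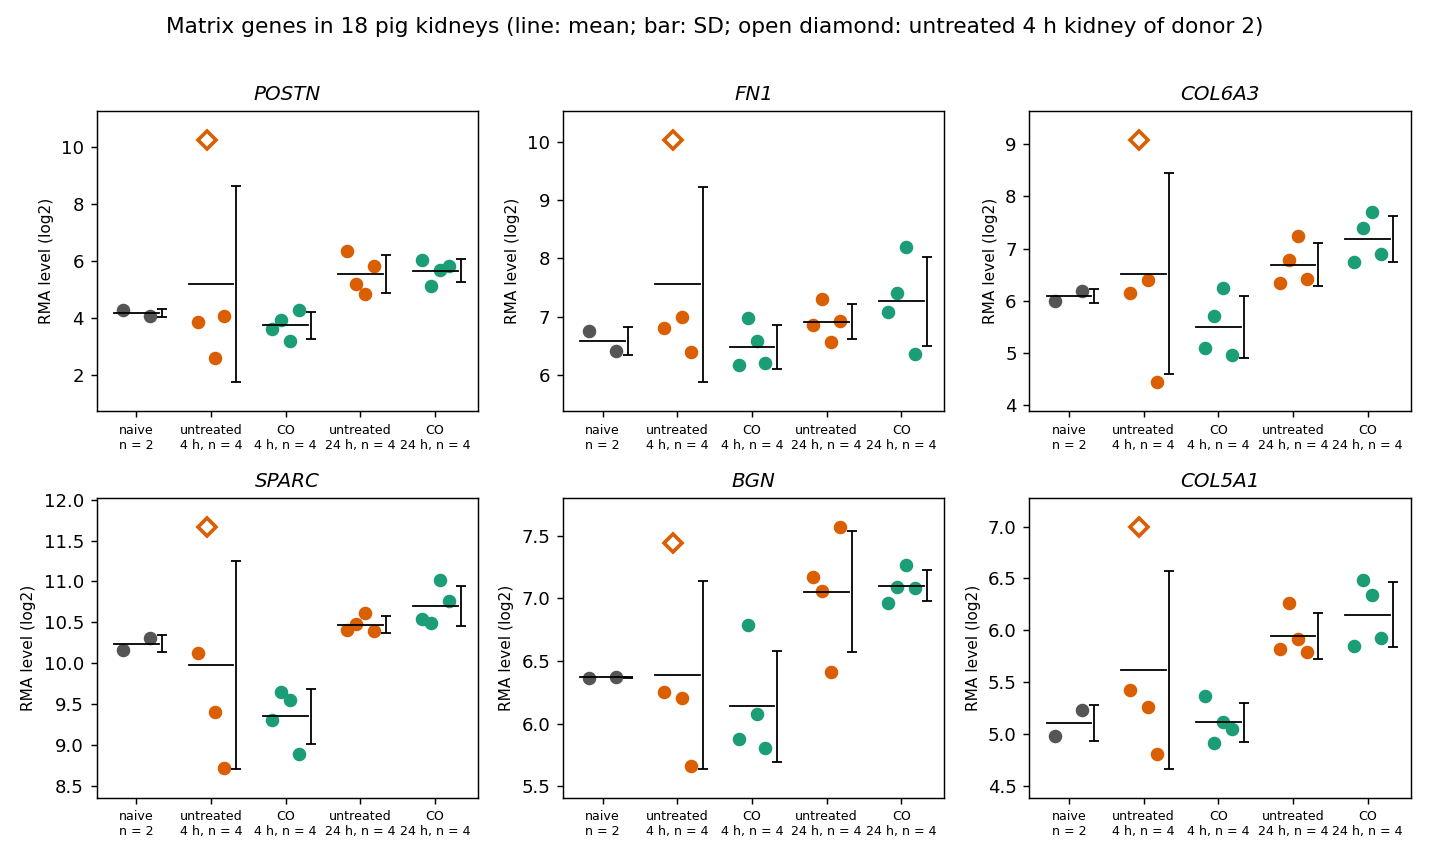
Vertical axes: RMA level (log2) of 6 matrix genes; horizontal axes: the 5 groups, with 1 point per kidney, the group mean as a line and the SD as a bar; the open diamond is the untreated 4 h kidney of donor 2. In POSTN that kidney is at 10.27 while all others lie between 2.60 and 6.36, and SPARC, BGN and COL5A1 are higher at 24 h than at 4 h in all CO kidneys.

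Fibronectin and the collagen VI chains showed the same dependence on that kidney. FN1 was at 6.75 and 6.41 in naive kidneys, 6.16, 6.97, 6.58 and 6.21 in CO kidneys at 4 h, and 7.07, 7.41, 8.19 and 6.36 at 24 h. Untreated kidneys at 24 h were at 6.85, 7.30, 6.56 and 6.93, and all groups overlapped on this probe set. The FN1 change from naive at 4 h untreated was 0.97 ± 0.71 with the donor 2 array and 0.14 ± 0.40 without it. The further fibronectin probe set was below background in naive kidneys (1.30 and 1.25). At 24 h it was at 2.72, 3.165, 2.26 and 2.42 in untreated and at 1.77, 2.34, 3.67 and 2.25 in CO kidneys, all above naive. On it the untreated 24 h kidneys were above every 4 h kidney but the untreated one of donor 2. No test of that probe set is given here. COL6A3 was at 6.00 and 6.20 in naive kidneys, 5.11, 5.72, 6.24 and 4.96 in CO kidneys at 4 h and 6.75, 7.40, 7.69 and 6.90 at 24 h, with no overlap between the CO groups (1.68 ± 0.64, adjusted p = 0.0802 over all arrays). COL6A2, whose product assembles with that of COL6A3, had a change of 0.24 ± 0.59 in the same comparison (adjusted p = 0.827). For COL6A2 the untreated 4 h change from naive was 0.60 ± 0.72 with the donor 2 array and -0.32 ± 0.27 without it.

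The other fibrillar collagens did not pass in any comparison. COL1A2, a chain of collagen I, was at 6.02 and 5.32 in naive kidneys and between 4.79 and 6.57 in all others. Its dimmer probe set (mean 1.85 over all arrays) rose from 4 h to 24 h in untreated (0.56 ± 0.13, adjusted p = 0.0142) and CO kidneys (0.61 ± 0.13, adjusted p = 0.00552), while the brighter one gave -0.33 ± 0.32 and 0.34 ± 0.32. COL3A1, the chain of collagen III, was between 3.57 and 5.05 throughout. COL5A3 was between 3.43 and 4.32 on every array but that of the untreated kidney of donor 2, where it was 5.05. COL2A1, COL5A2 and COL11A1 varied by less than 1 over the 18 arrays, at 4.05 to 4.53, 2.21 to 2.85 and 2.08 to 2.71. COL7A1, COL10A1 and COL17A1, collagens known mainly from skin and cartilage, lay at 1.51 to 2.48, 1.65 to 2.46 and 2.62 to 3.20. COL8A1, a chain of a short-chain collagen of vessel walls, was at 4.41 in the CO kidney of donor 5 and at 2.48 to 3.62 elsewhere.

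Of the basement membrane genes, COL4A2 passed from 4 h to 24 h with CO, as given above, and the 3 laminins and COL15A1 passed in no comparison. LAMC1 encodes the gamma 1 chain shared by most laminins. It was at 7.09 and 7.12 in naive kidneys and between 7.22 and 7.82 in all 16 transplanted kidneys, so no group overlapped the naive kidneys. Its changes from naive were 0.38 ± 0.18 and 0.33 ± 0.18 in untreated and 0.50 ± 0.18 and 0.47 ± 0.18 in CO kidneys at 4 h and 24 h, and did not pass (adjusted p = 0.244, 0.252, 0.0771 and 0.104). All 4 LAMC1 probe sets gave positive differences from naive in each of the 4 groups. LAMB1, the beta 1 laminin chain, had differences from naive of -0.18 ± 0.22, -0.46 ± 0.22, -0.37 ± 0.22 and -0.40 ± 0.22 in untreated kidneys at 4 h and 24 h and CO kidneys at 4 h and 24 h. LAMB2, the beta chain of mature glomerular laminin, had differences of -0.34, -0.16, -0.32 and -0.29 in that order, each with an SE of 0.34. On the second LAMB1 probe set naive kidneys were at 7.11 and 6.70. All kidneys at 24 h lay below both, at 6.02 to 6.31, while the 4 h groups overlapped the naive kidneys. No test of that probe set is given here. COL15A1, a collagen of vessel and tubule basement membranes, was lowest in the untreated kidneys of donors 4 (5.77) and 8 (5.94) and the CO kidney of donor 1 (6.06), against 7.43 and 7.56 in naive kidneys. Its differences from naive were -0.71 ± 0.42 and -0.65 ± 0.42 in untreated and -0.85 ± 0.42 and -0.25 ± 0.42 in CO kidneys at 4 h and 24 h, and did not pass (adjusted p = 0.369, 0.348, 0.199 and 0.769). FBN1, the microfibril protein fibrillin 1, was at 6.79 and 6.44 in naive and at 5.18, 6.55, 5.56 and 5.10 in CO kidneys at 4 h. Its difference of -1.02 ± 0.51 there did not pass (adjusted p = 0.206), and its second probe set gave -1.07 ± 0.40 (adjusted p = 0.0829).

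**Figure D5:**
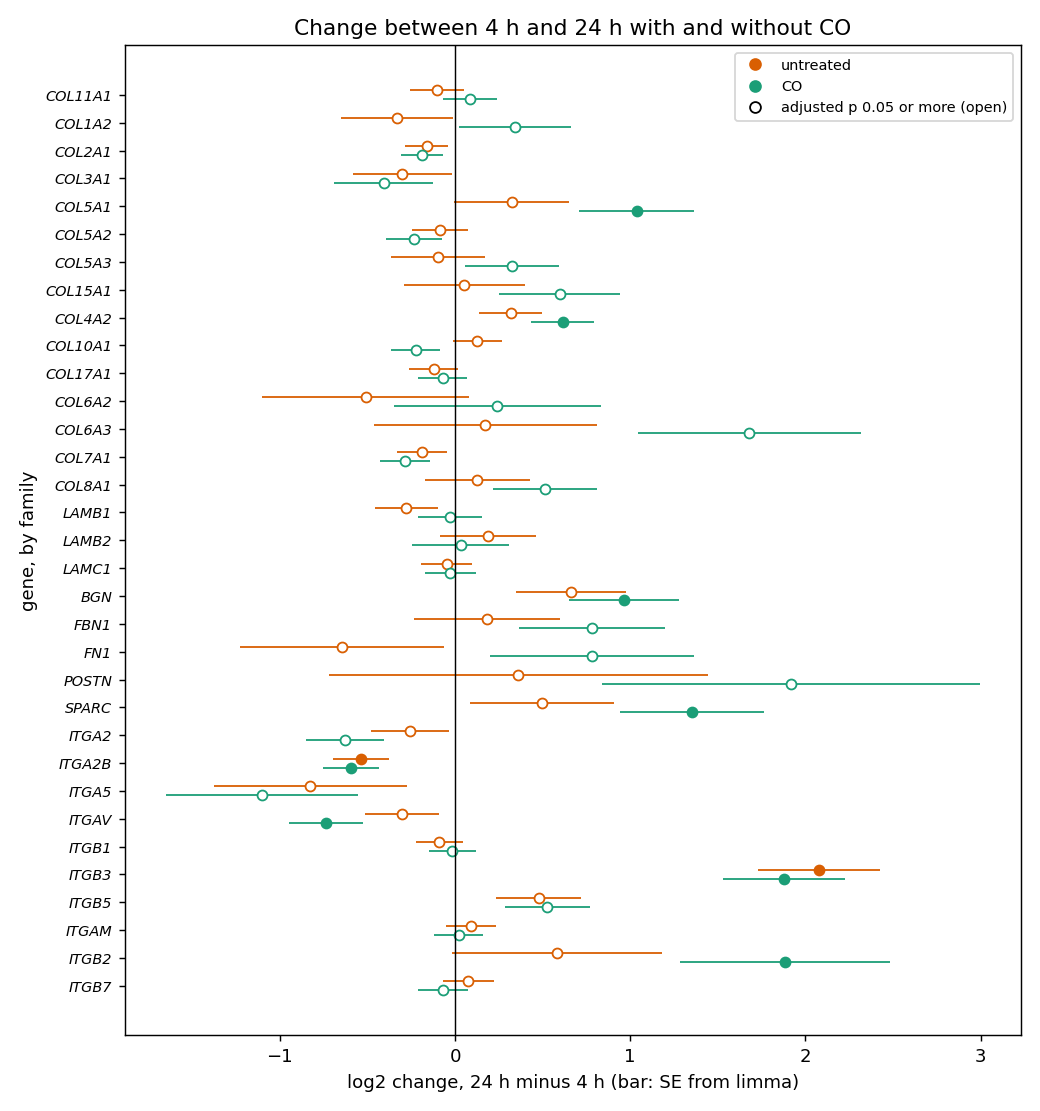
Horizontal axis: log2 change from 4 h to 24 h with its SE from limma, in untreated (orange) and CO (green) kidneys; vertical axis: the 33 genes above background by class; filled points passed an adjusted p of 0.05. ITGB3 has the largest change in untreated kidneys (2.08), and SPARC, COL5A1, BGN, COL4A2, ITGB2 and ITGAV are filled for CO kidneys only; the difference between both series was tested and passed for none of them.

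CO and untreated kidneys did not differ in any member by the test. At 4 h 0 of 35 members passed (0% of all probe sets), and with an unadjusted p under 0.05 there was 1, ITGB2, where 3.28% of all probe sets had one. At 24 h 0 passed (0% of all probe sets), with 0 at an unadjusted p under 0.05 (1.17% of all probe sets). The difference between the CO effects at 24 h and 4 h passed in 0 members (0% of all probe sets), with 0 at an unadjusted p under 0.05 (2.55%). With donor as a block in limma, 0 members passed in each of these 3 comparisons too.

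ITGB2 at 4 h was lower with CO by 0.94, 2.36, 1.47 and 2.19 in donors 1 to 4. In all 4 donors the CO kidney had the lower value, and the groups did not overlap. The mean difference was -1.74 with a 95% interval of -3.01 to -0.47, an adjusted p of 0.999 and, with donor as a block, of 0.111. At 24 h the CO kidney minus the untreated kidney was -1.11, 0.33, -0.46 and -0.52 in donors 5 to 8, and the mean difference of -0.44 had an interval of -1.71 to 0.83. The change of the CO effect with time was 1.30 (interval -0.49 to 3.09), so a difference between the times was not shown.

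For the integrin chains that rose after transplantation, the intervals of the CO difference were narrow for ITGB1 and wider for ITGB3 and ITGA5. For ITGB1 the interval was -0.39 to 0.18 at 4 h and -0.31 to 0.26 at 24 h. For ITGB3 it was -0.66 to 0.82 and -0.86 to 0.62, and for ITGA5 -0.78 to 1.55 and -1.06 to 1.27. For POSTN, with the donor 2 pair differing by -6.35 and the other 3 pairs by -0.26, 0.58 and 0.24, the 4 h interval ran from -3.73 to 0.84. Of 23 matrix genes 6 were higher with CO at 4 h and 15 at 24 h, with medians of -0.14 and 0.09. The share over all probe sets is not given beside these counts, and the 4 h values include the donor 2 pair. The counts are therefore not read as an effect of CO. Without the donor 2 array the SPARC, COL5A1, BGN and COL6A3 differences at 4 h were -0.06, -0.05, 0.10 and -0.17, instead of -0.63, -0.51, -0.25 and -1.02. The change of the CO effect from 4 h to 24 h for SPARC was 0.86 ± 0.58 over all arrays and 0.29 ± 0.35 without that array, so the greater number of matrix genes that passed in CO kidneys over time was not a difference from untreated kidneys that passed a test.

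Genes that build or use the matrix were compared as 4 further lists. Of 25 genes for collagen processing and cross-linking, 13 were measured. From 4 h to 24 h in CO kidneys, where 17.6% of all probe sets passed, 5 rose and 0 fell: the prolyl isomerase FKBP10 (1.91 ± 0.52), the lysyl oxidases LOXL1 (1.52 ± 0.31) and LOXL4 (1.21 ± 0.20), the collagen galactosyltransferase COLGALT1 (0.74 ± 0.22) and CRTAP (0.71 ± 0.16), a partner of prolyl hydroxylation. In untreated kidneys, where 9.72% of all probe sets passed, COLGALT1 (0.86 ± 0.22) and LOXL4 (0.78 ± 0.20) rose, while LOX, which cross-links collagen, and SPARCL1, a relative of SPARC, fell by 1.63 ± 0.43 and 1.23 ± 0.29. The untreated 4 h mean includes donor 2, with FKBP10 at 6.88 against 3.46 to 3.77 in the other kidneys of that group. LOXL1 was there at 4.65 against 2.96 to 4.12 and LOX at 6.49 against 4.66 to 6.59. Changes of this list without that array are not given. Against naive, 0 passed in untreated kidneys at 4 h (1.5% of all probe sets did), with 3 at an unadjusted p under 0.05. At 24 h untreated (14.6% of all probe sets) COLGALT1 (1.08 ± 0.27) and LOXL4 (0.99 ± 0.25) rose and SPARCL1 fell (-1.34 ± 0.36), and with CO (11.7%) COLGALT1 (1.00 ± 0.27) and LOXL4 (1.40 ± 0.25) rose. At 4 h with CO (13.6%) the collagen chaperone SERPINH1 rose by 2.39 ± 0.72 (adjusted p = 0.0389) and CRTAP fell (-0.97 ± 0.20).

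Of 12 measured genes of 25 for integrin adhesion machinery, 0 passed in untreated kidneys at 4 h against naive, with 4 at an unadjusted p under 0.05, and 6 rose at 24 h, where 1.5% and 14.6% of all probe sets passed. In CO kidneys 3 rose and 1 fell at 4 h, and 9 rose at 24 h, where 13.6% and 11.7% of all probe sets passed. The actin cross-linkers ACTN1 (1.89 ± 0.35 untreated and 1.86 ± 0.35 with CO) and FLNA (1.52 ± 0.43 and 1.60 ± 0.43), CD47, a partner of the beta 3 integrin (1.81 ± 0.28 and 1.50 ± 0.28), and CAV1, a caveolar scaffold (1.72 ± 0.36 and 2.03 ± 0.36), rose at 24 h in both. At 4 h with CO ACTN1, VCL, which links integrin sites to actin, and CD9 rose, and TNS3 fell. The mean level of the list was 6.64 to 6.69 in naive kidneys, 6.75 to 7.38 at 4 h and 7.36 to 7.81 at 24 h over both treatments, so that the CO kidneys of 4 h and 24 h overlapped.

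Of 32 other matrix genes 15 were measured. Against naive 0 rose and 1 fell in untreated kidneys at 4 h and 1 rose and 2 fell at 24 h, and in CO kidneys 3 rose and 4 fell at 4 h and 1 rose and 2 fell at 24 h. All probe sets passed at 1.5%, 14.6%, 13.6% and 11.7% in the same order. The integrin ligand osteopontin (SPP1) rose against naive by 3.54 ± 0.51 untreated and 3.52 ± 0.51 with CO at 24 h, and by 2.91 ± 0.51 with CO at 4 h. MFAP5, a microfibril protein, fell in all 4 groups, by 2.25, 2.25, 1.94 and 1.71 in untreated kidneys at 4 h and 24 h and CO kidneys at 4 h and 24 h. MFAP2, also of microfibrils, fell at 24 h by 1.45 ± 0.26 untreated and 1.71 ± 0.26 with CO. The integrin ligand CYR61 rose in CO kidneys at 4 h by 2.37 ± 0.53 (adjusted p = 0.0116).

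Of 18 genes of TGF-beta signalling, which drives collagen synthesis in scarring kidneys, 10 were measured. At 4 h 0 of them passed against naive in untreated and 0 in CO kidneys by limma, with 3 and 4 at an unadjusted p under 0.05 (1.5% and 13.6% of all probe sets passed). At 24 h 1 of 10 passed in untreated kidneys (14.6% of all probe sets), the growth factor TGFB1 with a rise of 2.59 ± 0.68 (adjusted p = 0.0174). With CO 2 of 10 did (11.7%), TGFB1 with 2.20 ± 0.68 (adjusted p = 0.0450) and the related TGFB2 with 0.78 ± 0.21 (adjusted p = 0.0246). The median change of the list was 0.03 untreated and 0.10 with CO at 24 h, against 0.01 and -0.02 over all probe sets.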

How the data were processed

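RNA of 18 pig kidneys was measured on 1 Affymetrix array each. The deposited values are log2 probe set summaries from RMA, per the labels and the submitters' processing notes; version and settings are not given in the sources used here. Arrays hold no counts, so their number limits precision. Groups follow source and title; the labels' treatment entry says air for CO arrays as well. Naive and donor 4 kidneys carry like numbers in their file names and may share animals, which the tests ignore.

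After removal of 124 control probe sets, 23999 of 24123 entered limma 3.58.1 (R 4.3.3; lmFit, eBayes, 18 arrays, 5 groups, two-sided, Benjamini-Hochberg). The platform annotation gives 10069 of them 1 symbol, 198 several and 13732 none; all 35 members matched a RefSeq gene identifier (Sscrofa11.1). Background is the 95th percentile of 17 tag control probe sets.

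Named members are those that passed in any comparison and the common chains and matrix proteins of a written list, with all others by their range; from supporting lists, up to 3 genes of largest change in each comparison described, or all of a count of 5 or fewer. COL6A2, COL6A3, COL1A2's dimmer probe set and the 2 arrays that stood apart were singled out after their values were seen. Members and lists were chosen with earlier results of these data known. The labels do not say whether arrays of a group come from separate animals beyond the donor number, so p values measure the spread between these arrays.

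Donor numbers pair CO and untreated kidneys because both come from the same donor per the labels. Deviations from group means correlated within a donor at -0.20, 0.07, 0.28, 0.57, 0.16, 0.35, 0.27 and 0.39 for donors 1 to 8. Batches are the 4 dates in the array file names: batch 1 holds a naive array and donors 1, 3 and 4, batch 2 a naive array, donor 2 and one kidney (untreated) of donor 5, batch 4 the CO kidney of donor 6 and batch 3 the rest. Alternatives were another variance model, a filter on low values, normalisation, array weights, batch and donor blocks (statmod 1.5.0), fewer groups, the mean of a gene's probe sets and leaving out arrays. Tested on simulated data (23999 probe sets, 8 comparisons), the share of true changes called was 0% to 14% at a log2 size of 0.5, 40% to 72% at 1 and 82% to 96% at 2. Figures used matplotlib 3.10.9 in Python 3.11.15.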

Additional observations from a re-analysis of the deposited data

Results flagged for a closer look

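Dixon's test was run on each member in each group of 4 arrays, 140 groups of values in all, and put 1 array far from the others in 9 of them; chance gives about 1 in 20. The untreated 4 h kidney of donor 2 accounted for 4: COL6A2 at 8.185 (next 4.647), FN1 at 10.039 (next 6.988), COL3A1 at 4.62 (next 4.372) and COL8A1 at 3.075 (next 2.854). The last pair are gaps of less than 0.3 on the log2 scale in groups whose other 3 arrays nearly coincide. POSTN in the same kidney did not pass Dixon's test, because the other 3 values were themselves spread from 2.60 to 4.05.

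The CO 4 h kidney of donor 2 was highest in ITGB5 (7.459, next 6.369) and ITGB7 (1.885, next 1.68, near background), and that of donor 3 in ITGB1 (9.486, next 9.171). The untreated 24 h kidney of donor 8 was highest in COL3A1 (4.981, next 3.938), and the CO 24 h kidney of donor 6 was lowest in LAMB1 (7.628, next 8.16).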

How the results depend on the processing

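Of the changes of named members under all alternatives, 2935 stayed on the same side of the threshold, 66 came to pass and 95 no longer passed. Direction was compared only where a change passed in either fit, and 0 of these reversed. The 2935 include changes that passed in neither fit, so they do not show how stable the calls were. Calls were kept in 7 of 16 alternatives (ITGB1, untreated 4 h against naive) up to 19 of 20 (ITGB3, 24 h against 4 h with CO). Counts of members that passed moved as follows. With array batch as a block, 0 passed in untreated kidneys at 4 h and 24 h against naive, in CO kidneys at 24 h against naive and from 4 h to 24 h with and without CO. With array weights 5, 6, 9 and 7 passed in untreated kidneys at 4 h and 24 h and CO kidneys at 4 h and 24 h against naive. Fitting the compared groups alone, 0, 6, 1 and 8 did, and 1 from 4 h to 24 h untreated. With arrays centred on their median 0 passed in untreated kidneys at 4 h and 1 in CO kidneys at 24 h against naive. With donor as a random replicate block 0 passed in untreated kidneys at 4 h, and the block changed no other count by more than 1.5 times. Leaving out 1 array gave 0 to 4 and 1 to 3 in untreated and 0 to 4 and 1 to 2 in CO kidneys at 4 h and 24 h against naive, and 1 to 6 untreated and 1 to 9 with CO from 4 h to 24 h. Chosen after the data were seen, the spread estimated without the untreated donor 2 array gave 5 in untreated and 5 in CO kidneys at 24 h against naive, and without donor 1 gave 4 in CO kidneys. Without both arrays 4, 6 and 6 passed in untreated kidneys at 4 h and 24 h and CO kidneys at 24 h against naive, and 5 from 4 h to 24 h untreated. The comparisons of CO with untreated kidneys and of the CO effect between times gave 0 under every alternative run. Apart from fits with fewer arrays, the cause of these shifts was not tested.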
